A study of Mus musculus with 13 samples.

Results

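Iron-sulfur cluster assembly genes are described here as a group of 9 genes, taken by symbol from the deposited table of estimated counts: Iscu, Nfs1, Lyrm4, Hscb, Glrx5, Isca1, Isca2, Bola3 and Nfu1. All 9 symbols were found among the 35013 gene symbols of the table, and all 9 passed the filter on low counts that kept 16468 genes for testing. The measurement was sequencing of newly made kidney RNA that had been tagged with 4-thiouracil, biotinylated and captured before poly-A selection.

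The 13 libraries came from kidneys of female mice whose age is not given in the sources used here. All mice carried Megalin3'Cre-Ert, a tamoxifen-inducible Cre expressed from the megalin gene of the proximal tubule, and 1 allele of Uprt behind a floxed stop, the enzyme that lets cells build 4-thiouracil into RNA. According to the methods, tamoxifen was given in parallel to the mice compared, and the WT kidneys came from littermates. The 4 libraries labelled Spns1 KO came from Spns1 flox/flox mice. The 5 WT libraries and the 4 FeO libraries (iron overload) came from mice called Spns1 WT in the labels and Spns1 flox/+ in the methods. Iron overload was made by daily injection of iron sucrose for 3 days, at 12 mg of elemental iron a day by the methods (the labels give the 12 mg as iron sucrose), and kidneys were taken 1 week later. The labels do not say whether replicates were separate mice, so p-values below measure the spread between these libraries.

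Iron-sulfur clusters are inorganic cofactors of iron and sulfide that carry electrons or hold substrates in enzymes of respiration, the citric acid cycle, lipoate synthesis and DNA repair. In mitochondria the cysteine desulfurase Nfs1, with its small partner Lyrm4 and the acyl carrier protein Ndufab1, supplies sulfur to the scaffold Iscu, on which the ferredoxin Fdx2 acts. The co-chaperone Hscb and the chaperone Hspa9 then release the new cluster to Glrx5, and Isca1, Isca2, Bola3 and Nfu1 build and deliver the larger clusters. The kidney proximal tubule is rich in mitochondria and takes up filtered iron-carrying proteins by endocytosis.

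Library totals were 31809135 to 71296474 counts in Spns1 KO, 23068023 to 37362311 in WT and 25986133 to 29981814 in FeO. Levels are given as CPM, the count of a gene relative to its library's total as scaled with TMM factors. Counts of the targeted gene, Spns1, overlapped between the libraries labelled Spns1 KO (36.6 to 59.0 CPM) and WT (39.2 to 62.9 CPM), with a log2 fold change of -0.31 ± 0.18 (SE, adjusted p = 0.225 from edgeR). With the trend in transcript length and GC content removed, as described below, Spns1 was called down (-0.55, adjusted p = 0.0249). The floxed part is exon 3 alone, so counts over the whole gene are no direct check of its loss. The summed CPM of 11 proximal tubule markers was 7333 to 8369 in Spns1 KO, 3610 to 5123 in WT and 2017 to 5041 in FeO. The sum of 20 markers of other kidney cells was 3603 to 4683, 2113 to 4455 and 2492 to 5813 in the same order, and no marker of either list was at 0 in every library of a group. Of the 11 and 20 markers, 7 and 9 were called up in Spns1 KO and none down, beside 14.0% up and 7.55% down over all genes tested. In FeO 2 and 8 were called up and 1 of each list down, beside 22.4% up and 19.7% down over all genes. The part of these markers in the results below was not tested, and in bulk RNA fewer cells of a type and less RNA per cell cannot be told apart.

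The promoter windows of RefSeq (build GRCm38.p6), from 250 bases before to 50 bases after a gene's start, were matched for 7 of the 9 genes, and Iscu and Hscb had no entry. Those of 4 genes are shown because their measurements differed most in kind: Glrx5 rose in both models, Isca2 rose in both only without a correction for transcript length, Nfs1 was called in Spns1 KO alone and Isca1 in neither. Windows are written 5′ to 3′ on the gene's strand, at chr12:105032368-105032667 (plus) for Glrx5, chr12:84773020-84773319 (plus) for Isca2, chr2:156144137-156144436 (minus) for Nfs1 and chr13:59769740-59770039 (minus) for Isca1. Capitals mark matches to any of 8 motifs on either strand.
Glrx5: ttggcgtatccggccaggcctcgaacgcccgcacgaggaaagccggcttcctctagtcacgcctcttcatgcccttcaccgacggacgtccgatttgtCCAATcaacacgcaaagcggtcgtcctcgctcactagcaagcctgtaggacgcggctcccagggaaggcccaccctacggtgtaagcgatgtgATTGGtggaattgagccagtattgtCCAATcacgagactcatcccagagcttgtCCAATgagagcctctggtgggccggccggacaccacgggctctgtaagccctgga
Isca2: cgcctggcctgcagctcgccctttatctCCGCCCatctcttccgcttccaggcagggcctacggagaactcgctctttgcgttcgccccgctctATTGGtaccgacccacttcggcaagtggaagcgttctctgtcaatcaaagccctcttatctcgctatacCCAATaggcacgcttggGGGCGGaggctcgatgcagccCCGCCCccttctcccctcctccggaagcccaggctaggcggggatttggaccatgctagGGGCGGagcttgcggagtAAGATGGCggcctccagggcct
Nfs1: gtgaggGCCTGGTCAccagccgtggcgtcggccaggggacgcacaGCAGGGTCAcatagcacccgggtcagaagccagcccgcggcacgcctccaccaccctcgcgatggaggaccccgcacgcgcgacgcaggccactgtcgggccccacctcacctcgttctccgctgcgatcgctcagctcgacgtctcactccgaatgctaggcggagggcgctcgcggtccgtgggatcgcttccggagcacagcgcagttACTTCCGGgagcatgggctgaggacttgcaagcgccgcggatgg
Isca1: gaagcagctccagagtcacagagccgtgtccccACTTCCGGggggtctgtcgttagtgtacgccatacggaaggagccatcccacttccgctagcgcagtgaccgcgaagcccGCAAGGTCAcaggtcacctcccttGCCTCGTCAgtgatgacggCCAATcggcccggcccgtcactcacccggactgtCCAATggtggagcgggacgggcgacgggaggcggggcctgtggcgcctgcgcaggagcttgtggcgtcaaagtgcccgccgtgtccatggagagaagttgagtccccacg
The CCAAT box (CCAAT) was found in windows of 5 of the 7 genes, with 4 matches in Glrx5, and in windows of 41.1% of all 27025 genes. The GC box (GGGCGG) was found in 4 genes and in 38.2% of all genes. The ETS motif of GABP (CCGGAAGT) was found in Nfs1 and Isca1 and in 4.31% of all genes. The core of the antioxidant response element (TGACNNNGC) was found in the same pair and in 14% of all genes. The YY1 motif (AAGATGGC) was found only in Isca2 among the 7 genes and in 3.19% of all genes. The ERR motif (CAAGGTCA) was found only in Isca1, where it overlapped a response element match, and in 1.76% of all genes. The NRF1 (GCGCATGC) and CREB (TGACGTCA) motifs, in 3.05% and 2.03% of all genes, matched no window of the 7 genes. These matches describe letters and not binding.

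At baseline the 9 genes spanned a wide range of per-length levels. In WT, Isca1, an A-type protein of late cluster assembly, stood highest with 70.6 ± 2.21 CPM per kilobase (SD, n = 5), at the 97.3 percentile of tested genes. The scaffold Iscu followed with 21.9 ± 3.75, then Nfs1 with 18.6 ± 0.99, Isca2 with 18.2 ± 2.70 and Nfu1 with 15.9 ± 1.24 CPM per kilobase. Bola3 had 7.51 ± 0.81, Hscb 5.41 ± 0.96, Glrx5 4.87 ± 0.85 and Lyrm4 4.72 ± 0.65 CPM per kilobase, the last at the 46.8 percentile. Every WT library of Isca1 lay above every WT library of Iscu, and the same held for Nfu1 over Bola3 and Bola3 over Hscb. The ranges of the other neighbours in this order overlapped. The scale used the longest coding transcript of each gene. With the median coding transcript, Nfs1 moved to rank 2 (53.8 CPM per kilobase) and Bola3 to rank 4 (29.8), while Isca1 stayed first and Lyrm4 last.

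**Figure D1:**
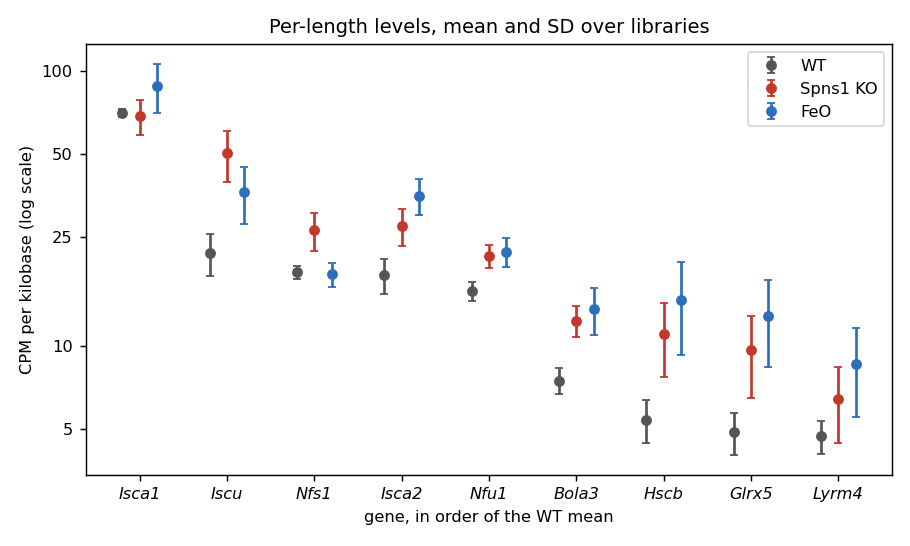
Mean level of each gene in CPM per kilobase of transcript, on a log axis, for WT (n = 5), Spns1 KO (n = 4) and FeO (n = 4). Points are means, bars are SDs over libraries, and genes stand in order of the WT mean, from Isca1 at 70.6 to Lyrm4 at 4.72 CPM per kilobase.

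Of the 9 genes, 6 were called up in Spns1 KO against WT and none was called down, where 14.0% of the 16468 genes tested were called up and 7.55% down. In FeO against WT also 6 were called up and none down, beside 22.4% up and 19.7% down over all genes. A call means a log2 fold change beyond 0.5 in either direction and an adjusted p under 0.05, from the quasi-likelihood test of edgeR and the Benjamini-Hochberg method over all genes tested. Over the 9 genes the median log2 fold change was 0.59 for Spns1 KO and 0.86 for FeO, against -0.05 and -0.01 over all genes tested. These medians hold the trend with transcript length described below. Both comparisons use the same WT libraries, so their values are set side by side and no overlap between them is drawn. Iscu, Hscb, Glrx5, Isca2 and Bola3 were called in each, Nfs1 in Spns1 KO and Lyrm4 in FeO. Every Spns1 KO library lay above every WT library for 6 of the 9 genes, a pattern seen in 13.1% of all genes, and every FeO library did so for 7, a pattern seen in 16.9%.

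The share of all genes called up moved with transcript length, and the 9 genes are short. Their longest coding transcripts ran from 804 to 2925 bases, with a median of 1942 against 3061 over the tested genes. In Spns1 KO 41.7% of genes under 1000 bases were called up, 20.0% of those from 1000 to 3000 bases and 5.25% of longer ones. In FeO these shares were 50.1%, 34.5% and 8.80%. Of the 9 genes, Hscb and Isca2 fell in the shortest class and the other 7 in the middle one. After subtraction of the smooth dependence of each library's counts on transcript length and GC content (below, with the trend removed), 3 of the 9 were called up in Spns1 KO and 4 in FeO, beside 9.49% and 16.8% of all genes. On this scale all Spns1 KO libraries lay above all WT libraries for Iscu and Bola3, and all FeO libraries for Glrx5, Isca2 and Bola3. They lay below all WT libraries for Isca1 in Spns1 KO and for Nfu1 in FeO. The shares of all genes with such a separation were not taken on this scale. Because of the trend, each gene is given below with its value on both scales.

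**Figure D2:**
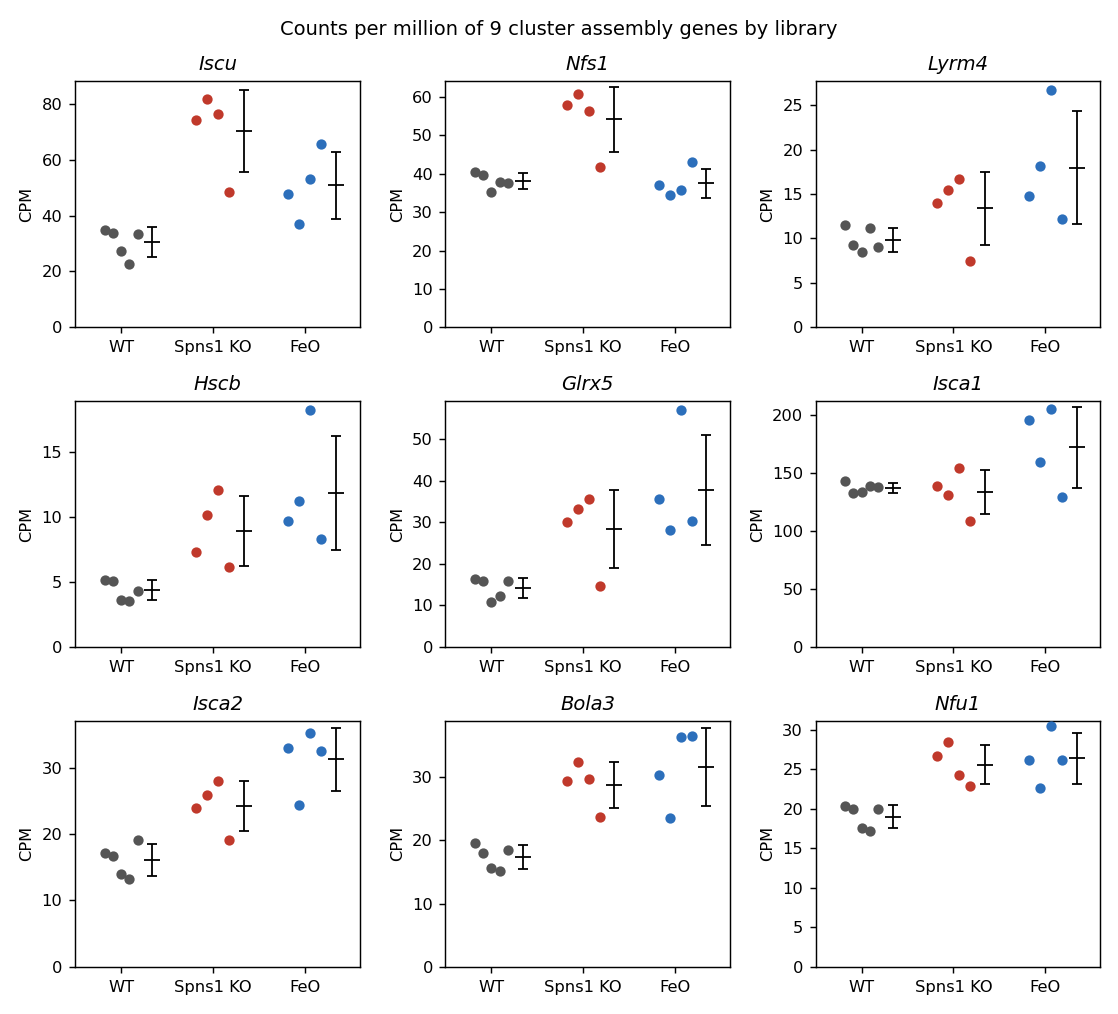
CPM of the 9 genes in each library, with 1 point per library and the mean ± SD of each group beside it. Iscu shows all 4 Spns1 KO libraries (48.5 to 81.7 CPM) and all 4 FeO libraries (36.8 to 65.6 CPM) above WT (22.8 to 35.0 CPM), whereas Isca1 in Spns1 KO (109 to 154 CPM) spans the WT range (133 to 143 CPM).

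The scaffold and sulfur donor genes act first in the pathway, and gene positions below are those of GENCODE M21 on GRCm38. Iscu (chr5:113772748-113778288, plus strand), which holds the nascent cluster, had 74.3, 81.7, 76.3 and 48.5 CPM in Spns1 KO 1 to 4. The 5 WT libraries held 35.0, 33.9, 27.3, 22.8 and 33.5 CPM, and the 4 FeO libraries 47.9, 36.8, 52.9 and 65.6 CPM. All libraries of both models thus lay above all WT libraries, and those of the models overlapped each other. Its log2 fold change came to 1.20 ± 0.19 (SE) in Spns1 KO (adjusted p = 0.000841) and 0.74 ± 0.19 in FeO (adjusted p = 0.0071). With the trend removed Iscu had 0.75 ± 0.14 in Spns1 KO (adjusted p = 0.00429) and 0.18 ± 0.14 in FeO (adjusted p = 0.346), so that only the Spns1 KO call was kept. Of its 31-base sequences, 24.5% also occurred in other genes. The largest sharer, Gm16437, held 17.2% of them and had at most 1 count in any library. Many other genes held smaller shares, such as Ptk2 (3.22%) and Cyp2e1 (2.56%), and the part of their reads in the Iscu counts was not tested.

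Nfs1 (chr2:156123639-156144186, minus strand), the cysteine desulfurase, was called up in Spns1 KO and not in FeO. It had 57.9, 60.8, 56.3 and 41.6 CPM in Spns1 KO 1 to 4, and its WT libraries held 40.4, 39.7, 35.2, 37.8 and 37.6 CPM. The FeO libraries held 37.1, 34.4, 35.7 and 43.0 CPM. The Spns1 KO libraries all lay above WT, the lowest of them by a small margin, and the FeO libraries overlapped WT. The log2 fold change was 0.51 ± 0.13 (SE) in Spns1 KO (adjusted p = 0.0137), just beyond the limit of 0.5, and -0.02 ± 0.13 in FeO (adjusted p = 0.898). The trend-removed values were 0.30 ± 0.11 (adjusted p = 0.0691) and -0.33 ± 0.11 (adjusted p = 0.0312, under the fold limit). The Spns1 KO call was lost without the library labelled Spns1 KO 1, 2 or 3 or without WT 3. It was also lost with upper-quartile factors (0.49), library totals alone (0.38), limma-voom (0.49) and the replicate number as a block (0.50, adjusted p = 0.0528).

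Reads of Nfs1 may be shared with overlapping genes. Gm28036, which lies over it on the same strand, held 123 to 924 counts per library and was called down in FeO (log2 fold change -0.66 ± 0.25 (SE), adjusted p = 0.0387), and 11.3% of the 31-base sequences of Nfs1 occurred in other genes. With the counts of Nfs1 and Gm28036 summed, the log2 fold change was 0.32 in Spns1 KO (adjusted p = 0.0666), no longer a call. Romo1, a small mitochondrial membrane protein encoded on the opposite strand over Nfs1, was called up in both models (log2 fold changes 1.82 and 1.07). The strand setting of the counting is not given in the sources used here, so reads of Nfs1 and Romo1 where they overlap cannot be told apart.

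Lyrm4 (chr13:35978395-36117526, minus strand), the partner that stabilizes Nfs1, had 14.0, 15.5, 16.7 and 7.45 CPM in Spns1 KO 1 to 4. WT libraries held 11.5, 9.24, 8.44, 11.1 and 9.0 CPM, and FeO libraries 14.8, 18.1, 26.7 and 12.1 CPM. Of the libraries labelled Spns1 KO, 3 lay above WT and the fourth below it, while all FeO libraries lay above WT. The log2 fold change was 0.44 ± 0.25 (SE) in Spns1 KO (adjusted p = 0.207) and 0.86 ± 0.25 in FeO (adjusted p = 0.0115). The trend-removed FeO value was 0.59 ± 0.22, still a call (adjusted p = 0.0477), and the Spns1 KO value 0.28 ± 0.22 (adjusted p = 0.392). Without the library labelled Spns1 KO 4 it passed in Spns1 KO (0.64, adjusted p = 0.0332), and without FeO 3 it no longer passed in FeO (0.61, adjusted p = 0.0557). Fars2, on the opposite strand over Lyrm4, was called up in FeO (log2 fold change 1.35).

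The transfer genes Glrx5 and Hscb had the 2 highest log2 fold changes of the 9 in FeO (1.40 and 1.44), whereas with the trend removed Glrx5 (1.34) was followed by Bola3 (0.65) and Hscb (0.63). Hscb (chr5:110829070-110839777, minus strand), the J-domain co-chaperone that recruits Hspa9 to the loaded scaffold, had 7.29, 10.2, 12.1 and 6.13 CPM in Spns1 KO 1 to 4. Levels in WT were 5.17, 5.08, 3.65, 3.53 and 4.32 CPM, and in FeO 9.67, 11.2, 18.2 and 8.32 CPM. All libraries of both models lay above WT. Fitted log2 fold changes of Hscb were 1.03 ± 0.25 (SE) in Spns1 KO (adjusted p = 0.0100) and 1.44 ± 0.26 in FeO (adjusted p = 0.000742). Removing the trend left 0.35 ± 0.20 in Spns1 KO (adjusted p = 0.233) and 0.63 ± 0.20 in FeO (adjusted p = 0.0246). At 804 bases its transcript is the shortest of the 9.

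Glrx5 (chr12:105032688-105042906, plus strand), the monothiol glutaredoxin that receives the cluster from the scaffold, had 30.1, 33.2, 35.7 and 14.6 CPM in Spns1 KO 1 to 4. Its WT libraries held 16.3, 15.8, 10.9, 12.3 and 15.9 CPM, and its FeO libraries 35.6, 28.2, 56.8 and 30.2 CPM. The FeO libraries all lay above WT, and so did 3 of the 4 libraries labelled Spns1 KO, with the fourth inside the WT range. Glrx5 had a log2 fold change of 0.99 ± 0.26 (SE) in Spns1 KO (adjusted p = 0.0125) and 1.40 ± 0.26 in FeO (adjusted p = 0.000875). It moved little with the trend removed, to 0.96 ± 0.25 (adjusted p = 0.0199) and 1.34 ± 0.25 (adjusted p = 0.00297). No 31-base sequence of Glrx5 occurred in another gene, and its transcript, at 2925 bases, is the longest of the 9. Omitting Spns1 KO 3 brought the value against WT to 0.87, which missed the limit (adjusted p = 0.0509).

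Among the late assembly genes, the A-type pair Isca1 and Isca2, which work together to make larger clusters, came first. Isca1 (chr13:59755409-59769810, minus strand) had 139, 131, 154 and 109 CPM in Spns1 KO 1 to 4 and 143, 133, 133, 139 and 138 CPM over the WT libraries. The FeO libraries had 196, 159, 205 and 129 CPM. The Spns1 KO libraries lay on both sides of WT, and 3 of the 4 FeO libraries lay above the highest WT library. Fitted log2 fold changes of Isca1 were -0.04 ± 0.16 (SE) in Spns1 KO (adjusted p = 0.868) and 0.33 ± 0.16 in FeO (adjusted p = 0.0955). On the trend-removed scale these were -0.24 ± 0.13 and 0.01 ± 0.13 (adjusted p = 0.209 and 0.968). Every Spns1 KO library then lay below every WT library (means of 129 and 153 CPM), and FeO overlapped WT. Although 75.2% of its 31-base sequences occurred in other genes, AK157302, the largest sharer, held at most 6 counts in a library.

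Isca2 (chr12:84773251-84775088, plus strand) had 23.9, 25.8, 28.0 and 19.2 CPM in Spns1 KO 1 to 4, against 17.2, 16.8, 14.0, 13.2 and 19.0 CPM over the WT libraries. FeO 1 to 4 held 32.9, 24.4, 35.2 and 32.4 CPM. Both models lay above WT in all libraries, the lowest Spns1 KO library only just. The log2 fold change was 0.59 ± 0.16 (SE) in Spns1 KO (adjusted p = 0.0171) and 0.96 ± 0.16 in FeO (adjusted p = 0.000644). With the trend removed Isca2 had -0.02 ± 0.10 in Spns1 KO and 0.20 ± 0.10 in FeO (adjusted p = 0.889 and 0.116). On that scale Isca2 averaged 21.0 ± 0.64 CPM in Spns1 KO and 21.3 ± 0.69 CPM in WT (SD, n = 4 and 5). With the median in place of the longest coding transcript in that trend, Isca2 kept its FeO call, and its Spns1 KO value was 0.21, not a call. The Spns1 KO call was also lost without the library labelled Spns1 KO 2 or Spns1 KO 3.

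Bola3 (chr6:83349147-83360136, plus strand), which acts with Glrx5 and Nfu1 in late cluster delivery, had 29.3, 32.4, 29.6 and 23.6 CPM in Spns1 KO 1 to 4. WT 1 to 5 held 19.5, 18, 15.7, 15.2 and 18.5 CPM, and FeO 1 to 4 held 30.2, 23.5, 36.3 and 36.4 CPM. No library of either model overlapped WT. Bola3 had a log2 fold change of 0.72 ± 0.16 (SE) in Spns1 KO (adjusted p = 0.00507) and 0.86 ± 0.16 in FeO (adjusted p = 0.00088). Removing the trend left both calls, at 0.61 ± 0.13 and 0.65 ± 0.13 (adjusted p = 0.00851 and 0.00427). With the median in place of the longest coding transcript in that trend, neither was a call (0.30 and 0.37, adjusted p = 0.076 and 0.0209, the second under the fold limit).

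Nfu1 (chr6:87009236-87028461, plus strand), a late carrier that serves lipoyl synthase and respiratory complexes, passed the adjusted p limit in both models but not the fold limit. It had 26.6, 28.4, 24.2 and 22.9 CPM in Spns1 KO 1 to 4, against 20.3, 20.0, 17.5, 17.2 and 20.0 CPM over the WT libraries. The FeO libraries had 26.2, 22.7, 30.5 and 26.2 CPM. All libraries of both models lay above WT. The adjusted p passed in each, but the log2 fold changes of 0.43 ± 0.13 (SE) in Spns1 KO (adjusted p = 0.0307) and 0.47 ± 0.13 in FeO (adjusted p = 0.0102) stayed under 0.5, so that neither was a call. The FeO value became one without WT 5, FeO 2 or FeO 4. With the trend removed the values were -0.06 ± 0.10 and -0.18 ± 0.11 (adjusted p = 0.698 and 0.181). On that scale every FeO library lay below every WT library (means of 21.4 and 24.2 CPM), and Spns1 KO overlapped WT. Of its 31-base sequences 18.7% occurred in other genes, of which Gm7859 had at most 1 count in a library.

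**Figure D3:**
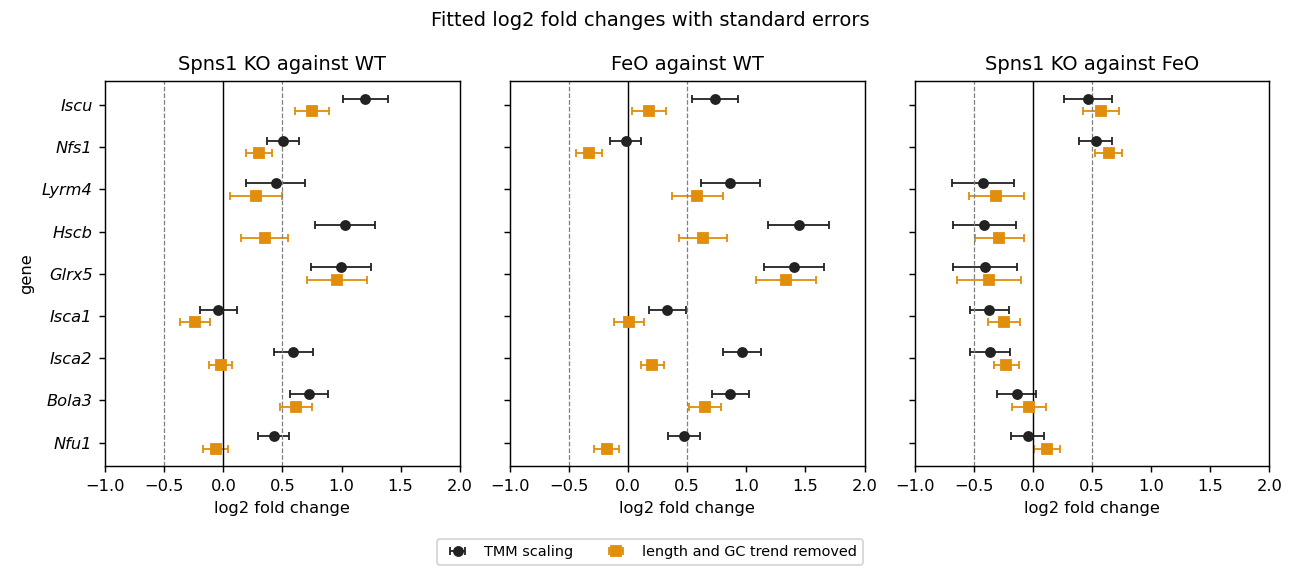
Fitted log2 fold changes of the 9 genes with standard errors in the 3 comparisons, with TMM scaling (black circles) and with the length and GC trend removed (orange squares); dashed lines mark 0.5 in either direction. Glrx5 stays near 0.99 and 0.96 in Spns1 KO on the 2 scales, whereas Isca2 moves from 0.59 to -0.02.

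A direct comparison of the libraries labelled Spns1 KO with FeO asked whether the models differed in any of these genes. Nfs1 was the only call, higher in Spns1 KO by 0.53 ± 0.14 on the log2 scale (SE, adjusted p = 0.0222 in the quasi-likelihood test of edgeR). Of all genes 6.76% were called higher in Spns1 KO and 8.1% lower, so that 1 call among 9 genes was near the background. Nfs1 was followed gene by gene. It averaged 54.2 ± 8.55 CPM in Spns1 KO and 37.5 ± 3.79 CPM in FeO (SD, n = 4 each), and 3 of the 4 Spns1 KO libraries lay above the highest FeO library. Iscu had 0.47 ± 0.20 (adjusted p = 0.126). The other 7 genes had values from -0.42 (Lyrm4) to -0.05 (Nfu1) with standard errors of 0.14 to 0.27, and none passed, which does not show that they were equal. With the trend removed both Nfs1 (0.64 ± 0.12, adjusted p = 0.00373) and Iscu (0.57 ± 0.15, adjusted p = 0.0201) were called higher in Spns1 KO. The Nfs1 call was lost with Gm28036 counts added (0.49) and in 5 of 13 fits with a single library omitted, namely without Spns1 KO 1 or 2 or FeO 1, 2 or 3.

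Ratios of levels per kilobase within a library describe the same unequal changes, with no test. The ratio of Iscu to Nfs1 was 0.885 to 1.31 in WT, 1.71 to 1.99 in Spns1 KO and 1.57 to 2.24 in FeO. Which of the pair stood higher depended on the transcript taken for the length: with the median coding transcript WT means were 31.9 (Iscu) and 53.8 (Nfs1) CPM per kilobase, those of Spns1 KO 73.3 and 76.4, and those of FeO 53.1 and 53.0. That choice does not touch the shift between groups. The ratio of Isca2 to Isca1 was 0.210 to 0.304 in WT, 0.377 to 0.435 in Spns1 KO and 0.337 to 0.553 in FeO, without overlap of WT and either model. These ratios hold the length trend. Once it was removed, the log2 fold changes of Isca2 came to -0.02 (Spns1 KO) and 0.20 (FeO), beside -0.24 and 0.01 for Isca1. For Hscb to Nfs1 it was 0.238 to 0.327 in WT, 0.321 to 0.547 in Spns1 KO, where it overlapped WT, and 0.494 to 1.30 in FeO.

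Some libraries were the lowest or highest of their group for many of the 9 genes. The library labelled Spns1 KO 4 was the lowest of its group for all 9 genes, and its median over the 9 was 0.26 on the log2 scale above the WT mean, against 0.60 to 0.77 in the other 3. Between libraries of the Spns1 KO group, the chi-square per degree of freedom over genes was 51.3 to 67.1 among the first 3 and 175 to 298 against the fourth. Among WT libraries it was 8.05 for WT 1 with WT 2 and 38.1 to 207 for the other pairs. Among FeO libraries it was 122 to 248. Whether WT 1 and WT 2 came from separate mice is not given, and every p-value against WT counts both. Without Spns1 KO 4, 7 of the 9 genes were called up in Spns1 KO, with Lyrm4 added, where 3003 of all 16651 genes tested were up. Without Spns1 KO 3 only Iscu, Hscb and Bola3 were called, where 1531 of 16676 genes were up. In the fit of all libraries 2307 of 16468 were. FeO 3 was the highest of its group for 6 of the 9 genes, and FeO 2 the lowest for 6.

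Over the 13 libraries, Pearson's r of log2 CPM between the 36 pairs of these genes ran from -0.29 (Nfs1 with Isca1) to 0.97 (Bola3 with Nfu1), with a median of 0.74. Taken as deviations from group means, the median was 0.64 and the range 0.12 to 0.93. These values are descriptions, since the libraries share groups, depth and the length trend. The most alike members were Bola3 and Nfu1, then Isca2 with Bola3 (0.95) and Hscb with Glrx5 (0.95), while Nfs1 was most like Iscu (0.79) and Isca1 most like Lyrm4 (0.79).

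Among all tested genes, the closest in pattern were ribosomal protein genes for Iscu (Rps9, r = 0.989) and Bola3 (Rpl24, 0.988) and mitochondrial ribosome genes for Hscb (Mrpl14, 0.971) and Glrx5 (Mrpl53, 0.985). Isca2 was closest to Srp14 (0.991), a subunit of the signal recognition particle, and Nfs1 to Pccb (0.973), a subunit of the propionyl-CoA carboxylase of mitochondria. Lyrm4 was closest to Tmem97 (0.954), Isca1 to Derl1 (0.959) and Nfu1 to 2310061I04Rik (0.977). Each r is over 13 libraries and was picked as the highest of 16468 genes. Among all tested genes, the likest other member ranked 419 for Iscu, 318 for Nfs1, 144 for Lyrm4, 21 for Hscb and 172 for Glrx5. It ranked 904 for Isca1, 158 for Isca2, 50 for Bola3 and 2 for Nfu1, so most members had many other genes closer in pattern.

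Of 14 partners of the core machinery in mitochondria, 5 were called up in Spns1 KO and 5 in FeO and none down, beside 14.0% and 22.4% of all genes called up, with median log2 fold changes of 0.30 and 0.31. Trend removal left 3 and 2 calls, beside 9.49% and 16.8% of all genes. The 5 calls in Spns1 KO became 3 without Spns1 KO 1 or 2 and 2 without Spns1 KO 3. Over all genes 1601, 1654 and 1531 were then called up, against 2307 in the fit of all libraries. Ndufab1, the acyl carrier protein bound by Lyrm4, rose by 0.68 in Spns1 KO and 0.89 in FeO (adjusted p = 0.0161 and 0.00162), and kept both calls with the trend removed (0.74 and 0.91). The ferredoxin Fdx2, which gives electrons to the scaffold complex, rose by 0.90 and 0.70 (adjusted p = 0.0127 and 0.0248), but had 0.13 and 0.00 with the trend removed.

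Hspa9, the mitochondrial chaperone that works with Hscb, averaged 724 ± 140 CPM in Spns1 KO, 423 ± 43.5 in WT and 513 ± 128 in FeO (SD, n = 4, 5 and 4). It was called up in Spns1 KO (0.78, adjusted p = 0.0127) and had 0.28 in FeO (adjusted p = 0.267). The difference between the models was 0.50 ± 0.21 (SE, adjusted p = 0.116), and with the trend removed it became a call (0.57, adjusted p = 0.0434). Nubpl, which assembles clusters into respiratory complex I, was called up in Spns1 KO (0.84, adjusted p = 0.00299) and not in FeO (0.18, adjusted p = 0.39), and the models differed by 0.66 (adjusted p = 0.0239).

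Of 11 cytosolic cluster assembly genes, 3 were called up and 0 down in Spns1 KO, where 14.0% of all genes were up and 7.55% down. In FeO 6 were up and 1 was down, where the shares over all genes were also higher (22.4% and 19.7%), and the difference between the counts was not tested. The medians were 0.27 and 0.85, and Lto1, the twelfth gene of this list, was not found by symbol in the table. Bola2 rose by 1.38 and 1.15 (adjusted p = 0.000499 and 0.000649) and Ciao2a, a component of the targeting complex, by 0.95 and 1.25 (adjusted p = 0.00371 and 0.000494). Trend removal left 1 gene called up in Spns1 KO (9.49% of all genes), against 5 in FeO (16.8%) with 1 called down, and ended the Spns1 KO call of Ciao2a (0.48) and the FeO call of Nubp2 (0.34). Glrx3, a glutaredoxin that pairs with Bola2, was called up in FeO alone (1.00, adjusted p = 0.000986, against 0.27, adjusted p = 0.303, in Spns1 KO). It was lower in Spns1 KO than in FeO by 0.73 (log2 fold change -0.73, adjusted p = 0.0253). The scaffold Nubp2 had 0.00 in Spns1 KO and rose by 0.86 in FeO (adjusted p = 0.997 and 0.00200), a difference of -0.86 (adjusted p = 0.0114). After trend removal the differences of Glrx3 and Nubp2 between the models were still calls (-0.68 and -0.79).

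Client proteins of mitochondria, which carry the clusters, were called up for 10 of 16 genes in Spns1 KO and 9 of 16 in FeO, with none down and medians of 0.69 and 0.58, beside 14.0% and 22.4% of all genes called up. With the trend removed 4 of 16 were called in each, beside 9.49% and 16.8%. Cisd3, a cluster protein of the mitochondrial matrix, rose by 1.59 and 1.53 (adjusted p = 0.000431 and 0.000399). Ndufs8, a complex I subunit with clusters, rose by 1.09 and 1.34 (adjusted p = 0.00124 and 0.000393), of which the first was lost with the trend removed (0.42). Ndufs1, the largest complex I subunit, averaged 231 ± 32.4 CPM in Spns1 KO, 145 ± 12.6 in WT and 128 ± 22.6 in FeO (SD, n = 4, 5 and 4). It was called up in Spns1 KO (0.68, adjusted p = 0.00724), had -0.18 in FeO (adjusted p = 0.371), and differed between the models by 0.85 (adjusted p = 0.0062). On the trend-removed scale its value in Spns1 KO was 0.65 and its difference between the models 0.95, both calls.

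The lipoate genes, whose product depends on the cluster enzyme Lias, included 3 of 9 called up in Spns1 KO and 2 of 9 in FeO, with medians of 0.30 and 0.35. Over all genes 14.0% and 22.4% were called up, so that the FeO count was near the background, and it fell to 1 without FeO 3. In that fit 3352 of 16707 genes were called up in FeO. Lias itself, lipoyl synthase, had 0.18 (adjusted p = 0.371) and 0.46 (adjusted p = 0.0150, under the fold limit). Gcsh, the lipoate-bearing protein of glycine cleavage, rose by 0.87 and 1.28 (adjusted p = 0.00644 and 0.000478), the first lost with the trend removed (0.48). Dld, the dehydrogenase subunit shared by lipoate enzymes, was called up in Spns1 KO alone (0.70, adjusted p = 0.0102), with 0.00 in FeO (adjusted p = 0.99) and a difference between the models of 0.70 (adjusted p = 0.0210). After trend removal 2 genes of this list were called in Spns1 KO and 1 in FeO, beside 9.49% and 16.8% of all genes.

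Of 19 cytosolic and nuclear clients, 2 were called up and 2 down in Spns1 KO, beside 14.0% and 7.55% of all genes, and 1 up and 5 down in FeO, beside 22.4% and 19.7%, with medians of -0.07 and 0.07. In Spns1 KO these counts were near the background and moved with single libraries. They became 4 up and 3 down without Spns1 KO 4, where 3003 of 16651 genes were up and 2677 down. The count was 1 up without Spns1 KO 1, 2 or 3, WT 3 or WT 4, where 1531 to 2132 genes were up. In FeO 3 were down without FeO 1 or FeO 3, and 0 up without FeO 1. Over all genes 2333 of 16681 and 2571 of 16707 were down in those fits, and 3294 were up without FeO 1. Pole, the catalytic subunit of a replicative DNA polymerase, had log2 fold changes of -0.93 and -0.93 (adjusted p = 0.00686 and 0.00346), and with the trend removed -0.63 and -0.40, the second no longer a call. Dpyd, a pyrimidine-degrading enzyme, rose by 0.95 in Spns1 KO (adjusted p = 0.00263), had -0.25 in FeO (adjusted p = 0.285), and differed between the models by 1.21 (adjusted p = 0.00324). Ppat, an enzyme of purine synthesis, was called down in Spns1 KO alone (-0.59, adjusted p = 0.0150) and differed by -0.62 (adjusted p = 0.0211), the first lost with the trend removed (-0.45). The nuclease-helicase Dna2 and the antiviral enzyme Rsad2 were higher in Spns1 KO than in FeO by 1.03 and 1.38 (adjusted p = 0.0323 and 0.00885). Aco1, the cytosolic aconitase that becomes an iron regulatory protein when it lacks its cluster, had 0.33 and 0.07 (adjusted p = 0.302 and 0.813).

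Import and folding genes, which bring the assembly proteins into mitochondria, were called up for 6 of 18 in Spns1 KO and 11 of 18 in FeO, with none down and medians of 0.48 and 0.54, beside 14.0% and 22.4% of all genes called up. Without Spns1 KO 4 the count in Spns1 KO was 11, where 3003 of all 16651 genes were called up. Tomm7, of the outer membrane translocase, rose by 1.95 and 1.62 (adjusted p = 0.000553 and 0.00073), and the chaperonin partner Hspe1 by 1.65 and 1.28 (adjusted p = 0.00044 and 0.000737). After trend removal 4 and 9 of the 18 were called up (9.49% and 16.8% of all genes), and Hspe1 was no longer called in FeO (0.44). The import subunits Tomm22 and Timm23 were called up in FeO alone (1.29 and 1.20, adjusted p = 0.00055 and 0.000978), and were lower in Spns1 KO than in FeO (-0.77 and -0.83, adjusted p = 0.0311 and 0.0305). The matrix chaperone Trap1 and the protease Lonp1 differed the other way (0.65 and 0.88, adjusted p = 0.0120 and 0.00847). Trap1 was called up in Spns1 KO (0.83, adjusted p = 0.00117), whereas Lonp1 was called in neither model against WT (0.46 and -0.42, adjusted p = 0.0672 and 0.0617).

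**Figure D4:**
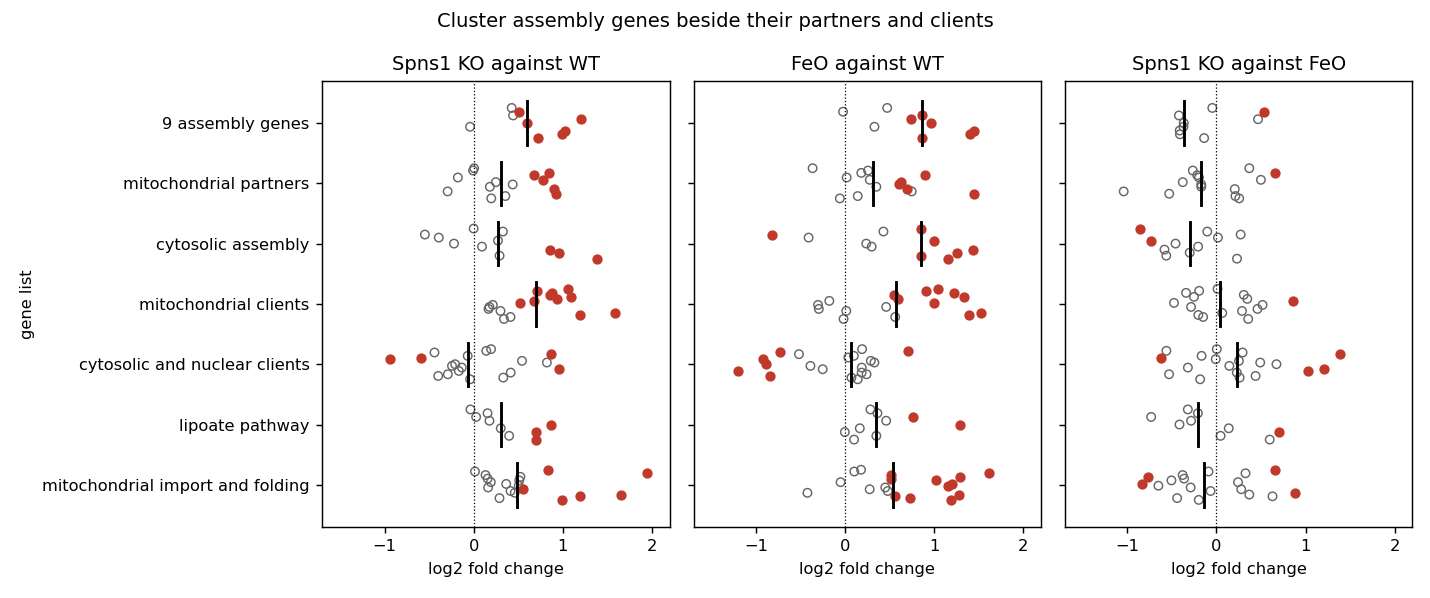
Log2 fold changes of the 9 assembly genes and 6 related gene lists in the 3 comparisons, with 1 circle per gene, filled where called, and a black line at each list's median. Against WT the medians of the 9 genes are 0.59 in Spns1 KO and 0.86 in FeO, while those of the cytosolic and nuclear clients are -0.07 and 0.07. All values are with TMM scaling and hold the length trend, so differences between lists of unlike transcript length include it.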

How the data were processed

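The authors deposited 1 table of estimated counts per gene symbol, whole numbers without normalization, for 13 libraries of paired-end reads of 100 bases. The submitters' processing notes name bcl2fastq 2.19, kallisto 0.44.0, DESeq2 and GRCm38, whereas the study's methods describe STAR and HTSeq on mm10, so whether reads were split between genes that share sequence is uncertain. Counts were tested with the quasi-likelihood test of edgeR 4.0.16 (R 4.3.3, TMM factors, filterByExpr by group) in 1 fit of all libraries without covariates, with Benjamini-Hochberg adjustment over 16468 genes. Calls needed an adjusted p under 0.05 and a log2 fold change beyond 0.5, limits taken from the study's methods. Log2 CPM used a prior count of 2 for the trend and for the comparison of same-numbered libraries. For correlations between genes a small constant was added to CPM instead. The length and GC trend was a natural spline with 5 degrees of freedom fitted to each library and passed to edgeR as an offset. Coordinates, transcripts and shared 31-base sequences came from GENCODE M21 (GRCm38), and promoter windows from RefSeq.

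The 9 genes, the related lists and the alternatives were chosen with earlier results of these data known. From each related list the text names up to 2 genes called alike in both models (smallest adjusted p), the gene with the smallest adjusted p called in only 1 model, every gene called between the models, and Hspa9, Aco1 and Lias whatever their values. Some genes that this rule would name are not reported here. The test was tried on simulated counts. Alternatives were other scalings and tools (limma 3.58.1, DESeq2 1.42.0), filters, the trend, a replicate block and leaving out each library.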

Additional observations from a re-analysis of the deposited data

Results flagged for a closer look

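Nfs1 differed between the models: it was higher in the libraries labelled Spns1 KO than in FeO, with a log2 fold change of 0.53 (edgeR's quasi-likelihood test of the difference itself, adjusted p = 0.0222, higher in 3 of 4 Spns1 KO libraries than in every FeO library). This was 1 call among the 9 genes, near the shares over all genes, of which 6.76% were called up and 8.1% down between the models. The call was lost in 5 of 13 fits with a single library omitted. The alternatives gave adjusted p from 0.00317 to 0.661. Dixon's test, run on 27 sets of 1 gene and 1 group, passed its limit in none, where chance passes it in about 1 in 20; with 4 or 5 libraries and 1 gene at a time it does not see a library that is low in many genes, and Spns1 KO 4 was the lowest of its group for all 9.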

How the results depend on the processing

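Deviations of same-numbered libraries from their group means correlated between -0.30 and 0.26, and 0 of 4 libraries correlated best with its own number in each comparison. With so few libraries a group, this check cannot exclude shared litters or batches, and the labels do not say what the numbers mean. With the replicate number as a block, 5 of the 9 genes were called in Spns1 KO against WT (6 without), 6 in FeO (6) and 0 between the models (1). Of all 16468 genes 1931, 3325 and 869 were then called up (2307, 3691 and 1113 without). Called down were 1057, 3191 and 1048 (1243, 3252 and 1334 without). With block and trend removal together, 1, 2 and 1 of the 9 were called, beside 889, 2110 and 869 of all genes up and 394, 2091 and 1157 down. The related lists then had 5 calls over both models for mitochondrial partners (10 without), 5 for cytosolic assembly (10), 5 for mitochondrial clients (19), 6 for cytosolic and nuclear clients (10) and 3 for lipoate genes (5).

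Trend removal alone gave 3 calls in Spns1 KO and 2 between the models, and 5 for partners, 8 for mitochondrial clients and 3 for lipoate genes. Of all genes it called 1563 up and 889 down in Spns1 KO, 2767 and 2412 in FeO, and 1111 and 1560 between the models. Trend removal without Spns1 KO 4 gave 3 and 2, and 12 for mitochondrial clients, and with the median coding transcript 2 and 2. These fits and the sum of Nfs1 and Gm28036 (0 between the models) were chosen after seeing the data. Without Spns1 KO 4 the trend-removed fit called 2292 genes up and 2348 down in Spns1 KO, 2904 and 2794 in FeO, and 894 and 1222 between the models. The median transcript gave 1784 and 1140 in Spns1 KO and 1123 and 1535 between the models. The sum gave 1112 and 1334 between the models. Testing against the fold limit itself (glmTreat) left 1 call in Spns1 KO, 0 between the models, and 2, 6, 11, 2, 1 and 10 for partners, cytosolic assembly, mitochondrial clients, cytosolic and nuclear clients, lipoate and import genes. Of all genes glmTreat called 833 up and 96 down in Spns1 KO, 1855 and 1264 in FeO, and 154 and 189 between the models. Library totals alone, and fits of only 2 groups, gave 0 between the models. Of all genes the first called 751 up and 1465 down between the models, and the second 441 and 599 of 15787. Leaving out each library gave 3 to 7 calls in Spns1 KO, 5 to 7 in FeO and 0 to 1 between the models. Over all genes 1531 to 3003, 3294 to 4042 and 545 to 1457 were called up in these fits. Per-length WT levels with the median transcript were 31.9 (Iscu), 53.8 (Nfs1), 6.93 (Hscb), 7.66 (Glrx5), 26.5 (Isca2), 29.8 (Bola3) and 20.0 (Nfu1) CPM per kilobase.

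Over the alternatives other than leaving out 1 library alone, the 9 genes' values kept direction and side of the limits 104, 116 and 122 times in the 3 comparisons and lost a call 23, 12 and 5 times. Signs turned only for values near 0 or with the trend removed. In Spns1 KO, Isca1 had 0.0203 without the filter and -0.118 to 0.0450 over the fits that left out 1 library, where it was above 0 without Spns1 KO 4. Under trend removal alone, with the block and without Spns1 KO 4, Isca2 had -0.0227, -0.0051 and -0.0130 and Nfu1 -0.0632, -0.0921 and -0.101 in Spns1 KO, and Nfu1 had -0.181, -0.208 and -0.186 in FeO. In FeO, Nfs1 had 0.0444 without the filter and -0.0679 to 0.0334 over the fits that left out 1 library (0.0013 without FeO 3), and Isca1 -0.0309 with block and trend. Between the models, Nfu1 had 0.118 with the trend removed, 0.116 with the block too, 0.0853 without Spns1 KO 4 and 0.0628 with the median transcript, and -0.108 to 0.0307 over the fits that left out 1 library (0.0041 without Spns1 KO 4), and Bola3 0.0188 with the trend removed without Spns1 KO 4. Beyond the trend's own construction, the cause was not tested. Library totals moved the median over all genes in Spns1 KO from -0.05 to -0.18 and the calls from 2307 up and 1243 down to 1739 and 2086.

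With 4 or 5 libraries a group, shared WT libraries and no measure of cell numbers, these data do not give protein levels or cluster assembly itself.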
